A study of Mus musculus with 3 samples.

Results

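Hippocampal CA1 spots were the array positions that ranked highest for 4 CA1 marker genes in 3 mouse brain sections. In each section, spots with at least 3000 UMIs (unique molecular identifiers, which count captured RNA molecules) were scored by the natural log of 1 plus the counts per 10000, summed over Fibcd1, Spink8, Wfs1 and Hpca. The 30 highest spots of each section were taken. This gave 90 spots of the 10239 with at least 3000 UMIs, and of 14976 barcodes in all. Because the spots were chosen by measured values of these 4 genes, the levels of the 4 genes are given as a description, and the genes were left out of the comparisons between sections.

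The CA1 field is the last relay of the hippocampal loop. Its pyramidal neurons, packed in a thin layer of cell bodies, receive input from CA3 through the Schaffer collaterals and from the entorhinal cortex, and send their output to the subiculum and the cortex. The synapse between CA3 and CA1 is the classical preparation for long-term potentiation, in which calcium entry through NMDA receptors activates calmodulin-dependent kinases and brings more AMPA receptors to the synapse. Activity in these neurons switches on immediate early genes such as Egr1 and Arc, which are widely used as markers of recent firing.

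The sections, each 10 µm thick, were cut from fresh frozen brain of C57BL/6J mice and placed on 10x Visium arrays, whose barcoded spots capture polyadenylated RNA from the tissue above them. The study asked whether exercise alters the molecular and spatial signs of brain aging. The Y-Ctrl section had the treatment label control, the O-Ctrl section had the same treatment label with the prefix O, and the O-Ex section had the prefix O and the treatment label exercise. No other allele or agent is named for any group, and the sources used here do not state ages, how the mice exercised or how many animals were used. The labels call the molecule nuclear RNA. Each group had 1 section, so section, animal and condition cannot be told apart, no difference has a replicate check, and no p-value is given. Intervals are exact 95% Poisson intervals and cover counting error only. A spot covers parts of several cells, so fewer cells of a type and less RNA per cell cannot be told apart.

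The CA1 spots were deep. Their UMI counts had a median of 48763.5 (Y-Ctrl), 32147 (O-Ctrl) and 49230.5 (O-Ex), against 15652, 14796.5 and 13524.5 in the other spots of the same sections. Summed over the 30 spots, the depth was 1474092, 981215 and 1396600 UMIs in the same order, so values from O-Ctrl are the least precise. Mitochondrially encoded genes took 6.21%, 7.05% and 6.96% of the UMIs in CA1 spots, and 20.0%, 19.9% and 18.1% in the others. The score of the last spot taken was 7.19, 6.71 and 7.02 in that order, and that of the next spot, just outside, was 7.16, 6.70 and 6.92, so the selection ends on a slope without a gap. All 4992 array barcodes are present in each library by the design of the array. The positions taken as CA1 shared 9 barcodes between Y-Ctrl and O-Ctrl, 8 between Y-Ctrl and O-Ex and 6 between O-Ctrl and O-Ex, and 1 barcode was taken in all 3.

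Markers that took no part in the selection bore out the label. Of 16 other CA1 pyramidal markers, 15 had a higher level in CA1 spots than in the other spots of the same section in all 3 sections. Summed over the 16 genes, the level was 5429, 5300 and 5576 CPM (counts per 1000000 UMIs) in CA1 spots, in the order Y-Ctrl, O-Ctrl and O-Ex used throughout, against 963, 964 and 1055 CPM in the others. Since the spots were picked for genes of the same neurons, this is a description of the selection and no test.

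Markers of neighbouring fields and of glia summed to less in CA1 spots than in the spots they are compared with here. The CA2 and CA3 spots and the dentate spots were chosen for genes of the same lists. Lower sums in CA1 than in those spots therefore follow from the choice and are no test. CA2 and CA3 markers were the most abundant of the neighbouring fields, at 509, 632 and 385 CPM, against 3102, 1863 and 2005 CPM in the 30 CA2 and CA3 spots. Single CA1 spots reached 5873, 6763 and 2726 CPM, while the median spot had 262, 257 and 210 CPM. Dentate granule cell markers summed to 65.1, 44.8 and 77.3 CPM, against 1541, 1248 and 1752 CPM in the 30 spots of each section that scored highest for dentate markers. These dentate spots held 2607, 2195 and 2408 CPM of the CA2 and CA3 markers. In both O sections that was more than in the CA2 and CA3 spots. The CA2 and CA3 spots also held 2858, 2929 and 3730 CPM of the 4 CA1 score genes. They are named for the genes of their score and are not a pure field. Subiculum markers summed to 23.1, 16.3 and 17.9 CPM, with Col5a2 at 0 in all 3 sections. Myelin and oligodendrocyte genes summed to 798, 1139 and 1145 CPM in CA1 spots, and to 8220, 9190 and 8674 CPM in the other spots. Homeostatic microglia genes summed to 179, 214 and 187 CPM, against 598, 647 and 655 CPM. All 16 myelin genes and all 12 microglial genes were lower in CA1 spots than elsewhere in every section.

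**Figure D1:**
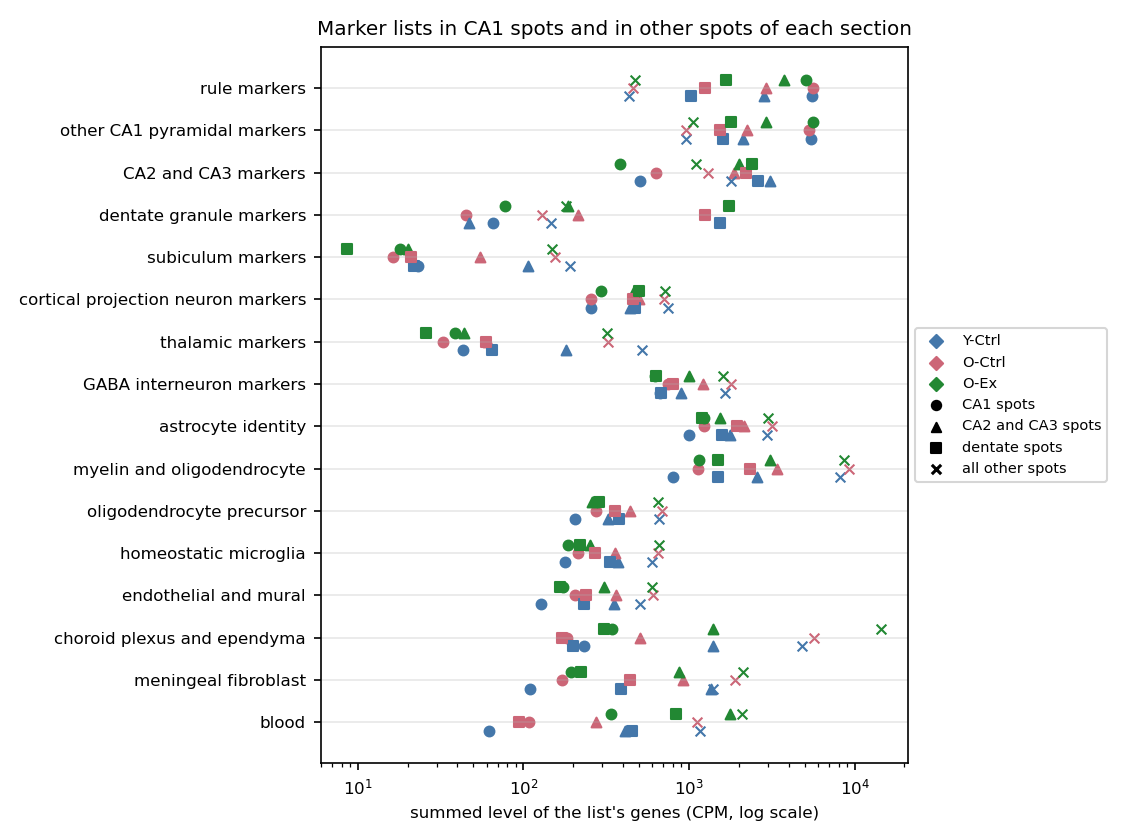
Summed level of each marker list (horizontal axis, CPM, log scale) in CA1 spots (circles), the 30 CA2 and CA3 spots (triangles), the 30 dentate spots (squares) and all other spots (crosses) of the Y-Ctrl (blue), O-Ctrl (red) and O-Ex (green) sections. The other CA1 pyramidal markers lie between 5300 and 5576 CPM in CA1 spots and between 963 and 1055 CPM in all other spots, while myelin, microglial, choroid plexus and blood lists lie to the left of the crosses.

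Genes that were highest in CA1 relative to the rest of the section were led by Lefty1, a secreted antagonist of Nodal signalling. Lefty1 stood at 212, 201 and 189 CPM in CA1 spots against 5.61, 5.13 and 5.73 CPM elsewhere, a ratio of 14.2, 13.9 and 12.6 on CPM + 10. The next in rank were Gm2115, Rasd1 (a small GTPase induced by dexamethasone), Wipf3 (which binds WASP-family actin regulators), Iqgap2 (a scaffold for actin and small GTPases) and Man1a (a mannosidase that trims N-glycans). Gabra5, the alpha-5 subunit of the GABA-A receptor that carries tonic inhibition in CA1, stood at 432, 390 and 439 CPM, against 49.6, 49.5 and 55.9 CPM elsewhere. Itpka, a kinase of inositol trisphosphate in dendritic spines, stood at 1166, 1202 and 1181 CPM, against 166, 152 and 148 CPM. Neurod6, Lmo1, Abracl, Arhgap12, Klk8, Pou3f1 and Rprml completed the 15 leading genes. Their ratios in the 3 sections lay close together, which the ranking by the smallest of the 3 ratios favours. Neurod6, a transcription factor of pyramidal neurons, had 7.98, 6.54 and 7.81.

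The 30 spots of a section were not uniform, and for Pcp4, and for Sst and Hbb-bs in 1 section each, 1 or 2 spots carried much of the count. Pcp4, a calmodulin-binding protein abundant in CA2, had 227 of its 328 counts in 1 spot of Y-Ctrl. In O-Ctrl, 151 and 88 of its 290 counts came from 2 spots, and in O-Ex 96 and 64 of 226. Outside these spots the gene was sparse, with medians of 3, 1 and 2 counts per spot. Sst, the somatostatin of a class of interneurons, had 151 of its 218 counts in 1 Y-Ctrl spot, and 60 and 71 counts in all in O-Ctrl and O-Ex. Hbb-bs, a beta-globin of red blood cells, had 128 of 265 counts in 1 O-Ex spot. Other genes were spread more evenly: the richest spot held 7.35%, 7.56% and 7.67% of the Egr1 counts and 6.77%, 7.13% and 7.69% of those of the myelin gene Mbp.

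**Figure D2:**
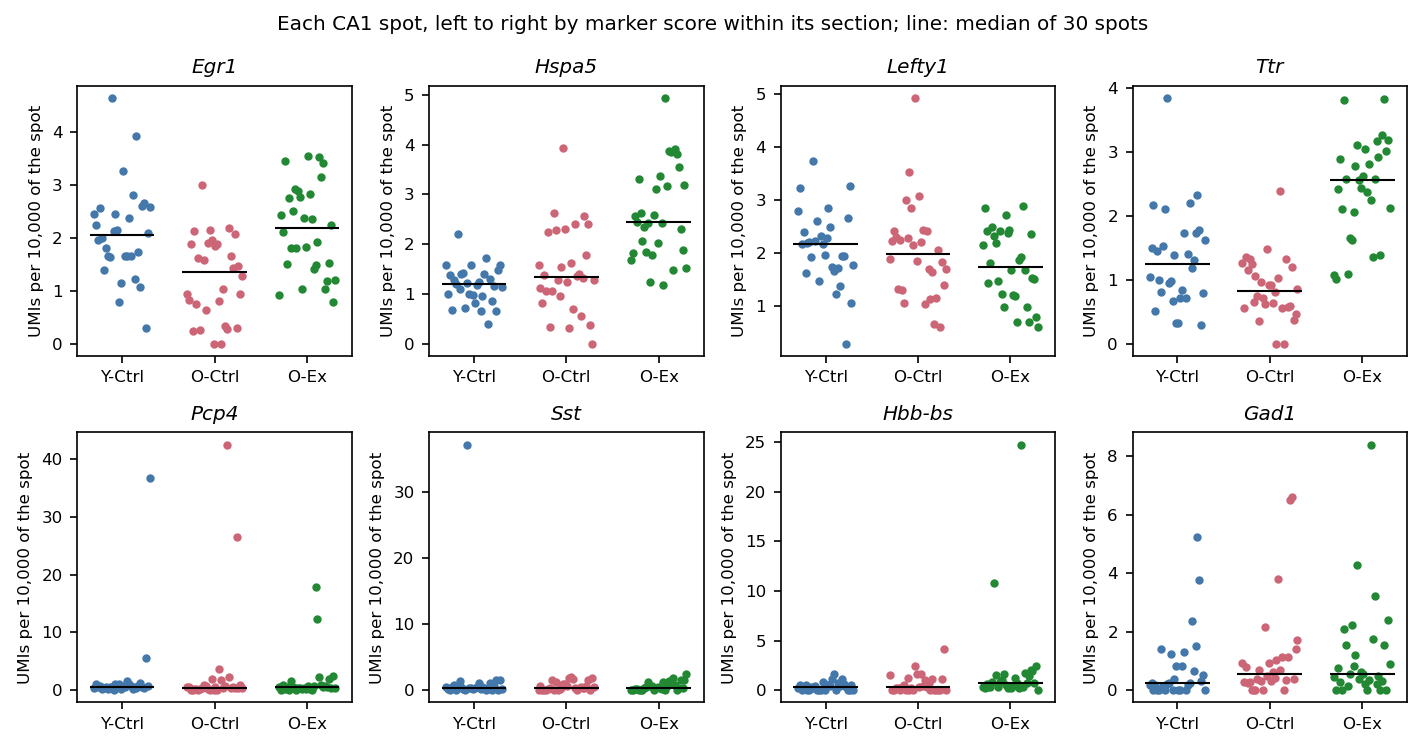
UMIs per 10,000 in each of the 30 CA1 spots of Y-Ctrl (blue), O-Ctrl (red) and O-Ex (green) for 8 genes, ordered within a section by marker score; the line is the median of 30 spots. Pcp4 in all sections, Sst in Y-Ctrl and Hbb-bs in O-Ex have 1 or 2 spots far above the rest, whereas Hspa5 has medians of 1.19, 1.35 and 2.44 with most O-Ex spots above the other medians.

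Sections were compared on counts summed over the 30 spots, for the 1955 genes that averaged 100 CPM or more, and a difference was counted when it reached 1.5-fold on CPM + 10. The level of most genes in CA1 was close in all 3 sections. Between O-Ctrl and Y-Ctrl, 6 genes were higher in O-Ctrl (0.307% of those measured) and 6 were lower (0.307%), and the median log2 ratio was -0.01. Between O-Ex and O-Ctrl, 21 genes were higher in O-Ex (1.07%) and 10 were lower (0.512%), with a median of -0.01. For each of these genes the Poisson intervals of the compared sections were apart. Of all 1955 genes, 910 had a log2 ratio above 0 for O-Ctrl over Y-Ctrl and 955 for O-Ex over O-Ctrl. The list tallies given below stand beside these shares. In the other spots of the sections, whose summed depth is far larger, the same 1955 genes gave 2 higher and 0 lower for O-Ctrl over Y-Ctrl, and 4 higher and 1 lower for O-Ex over O-Ctrl. The 30 CA2 and CA3 spots, with a summed depth of 765609, 731097 and 795599 UMIs, gave more, with 46 higher and 34 lower, then 67 and 27, and the 30 dentate spots gave 12 and 30, then 78 and 34. Both comparisons use the O-Ctrl section, so a value that is particular to that section appears in both with opposite sign. These counts move by more than 1.5 times with several settings: with the 15 highest spots in place of 30, they were 12 and 13 for O-Ctrl over Y-Ctrl and 32 and 30 for O-Ex over O-Ctrl. Of the called genes at the ends of the O-Ctrl over Y-Ctrl ranking, Egr1 and Gm42418 (2 of 12) stayed past 1.5-fold under every alternative run for them. For O-Ex over O-Ctrl these were Calr, Dnajc30, Eef1a2, Egr1, Fkbp3, Prkag2 and Snhg11 (7 of 22).

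**Figure D3:**
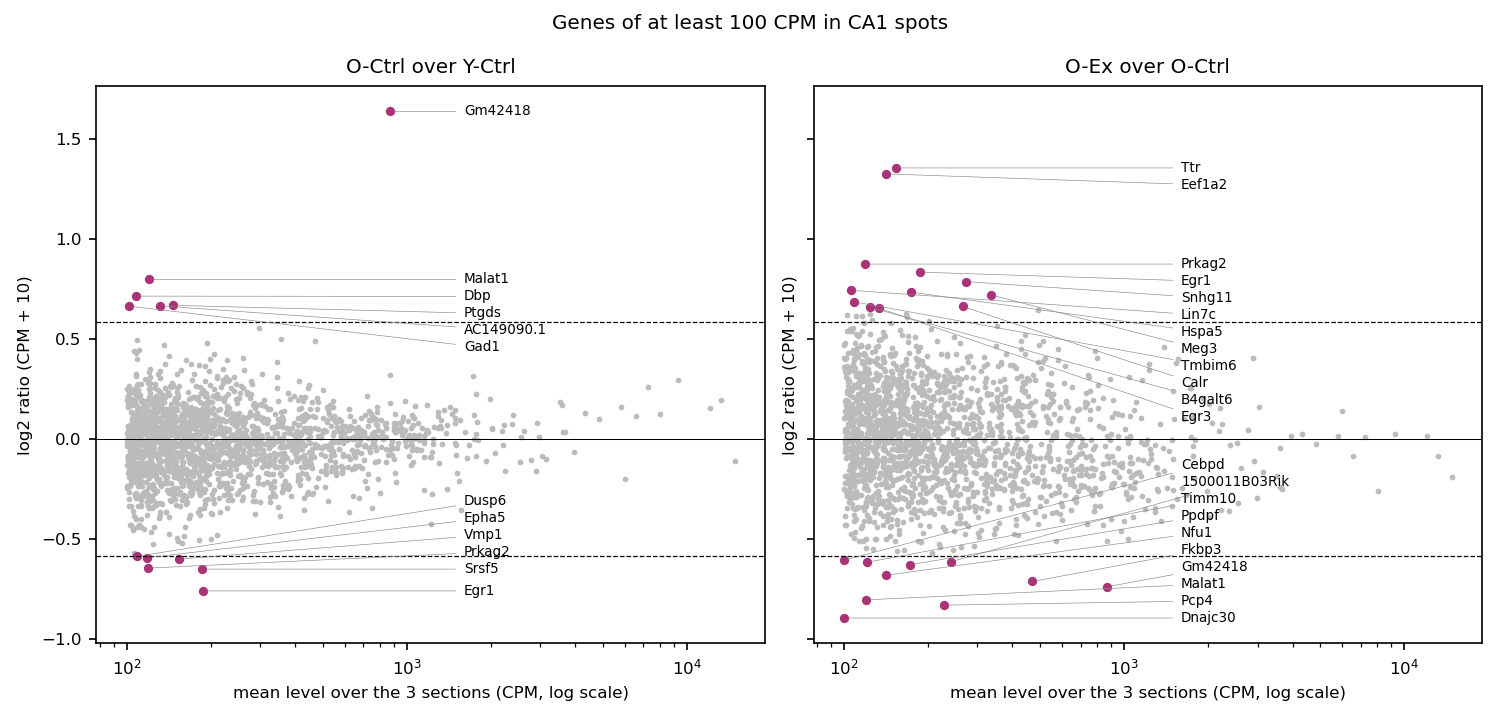
Log2 ratio on CPM + 10 (vertical axis) against the mean level over the 3 sections (horizontal axis, CPM, log scale) for 1955 genes in CA1 spots, with O-Ctrl over Y-Ctrl on the left and O-Ex over O-Ctrl on the right. Dashed lines mark 1.5-fold; named points are those past it among the 12 highest and 12 lowest, and Gm42418 stands apart at 1.64 on the left.

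Immediate early genes differed between the sections, with Egr1 the furthest. Egr1, a zinc-finger transcription factor induced within minutes of synaptic activity, stood at 214 CPM (191 to 239), 122 CPM (101 to 146) and 225 CPM (201 to 252). The O-Ctrl section was low and the other sections were level, with overlapping intervals. The log2 ratio of Egr1 was -0.76 for O-Ctrl over Y-Ctrl and 0.83 for O-Ex over O-Ctrl, and both stayed past 1.5-fold under all 16 alternatives that were run for it, with ranges of -0.92 to -0.66 and 0.69 to 1.02. Outside CA1 the log2 ratios of Egr1 had the same signs, at -0.54 and 0.51.

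Egr3, a relative of Egr1, stood at 131, 103 and 167 CPM, with a log2 ratio of 0.65 for O-Ex over O-Ctrl. Homer1, a postsynaptic scaffold with an activity-induced short form, stood at 151, 123 and 167 CPM. Jund, a member of the AP-1 family, stood at 142, 133 and 183 CPM. Dusp6, a phosphatase of ERK kinases, was lower in both O sections, at 141, 90.2 and 96.4 CPM, with a log2 ratio of -0.59 for O-Ctrl over Y-Ctrl. All 5 measured members of the list of 22 were therefore below 0 for O-Ctrl over Y-Ctrl (median -0.33, 2 of them past 1.5-fold) and above 0 for O-Ex over O-Ctrl (median 0.43, 2 past 1.5-fold). Over all 1955 genes, 910 were above 0 and 0.307% were past 1.5-fold lower for O-Ctrl over Y-Ctrl. For O-Ex over O-Ctrl 955 were above 0 and 1.07% were past 1.5-fold higher. In all spots outside CA1 the 5 immediate early genes had medians of -0.35 and 0.37. Their medians were 0.06 and 0.32 in the CA2 and CA3 spots, and -0.05 and 0.34 in the dentate spots.

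Of the 17 members of that list below the 100 CPM minimum, 10 were lowest in O-Ex and 7 in O-Ctrl, and the genes named here were chosen after their values were seen. Arc, whose protein acts at dendritic synapses, stood at 120 CPM (103 to 139), 82.0 CPM (65.0 to 102) and 56.9 CPM (45.0 to 70.9). Nr4a1, an orphan nuclear receptor, stood at 131, 92.2 and 70.5 CPM. Junb, of the AP-1 family, stood at 90.0, 67.6 and 51.1 CPM. For Arc, Nr4a1 and Junb the O-Ex section had the lowest level, and its interval lay wholly below that of Y-Ctrl. Fos was near the limit of detection with 22, 2 and 5 counts, lowest in O-Ctrl.

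**Figure D4:**
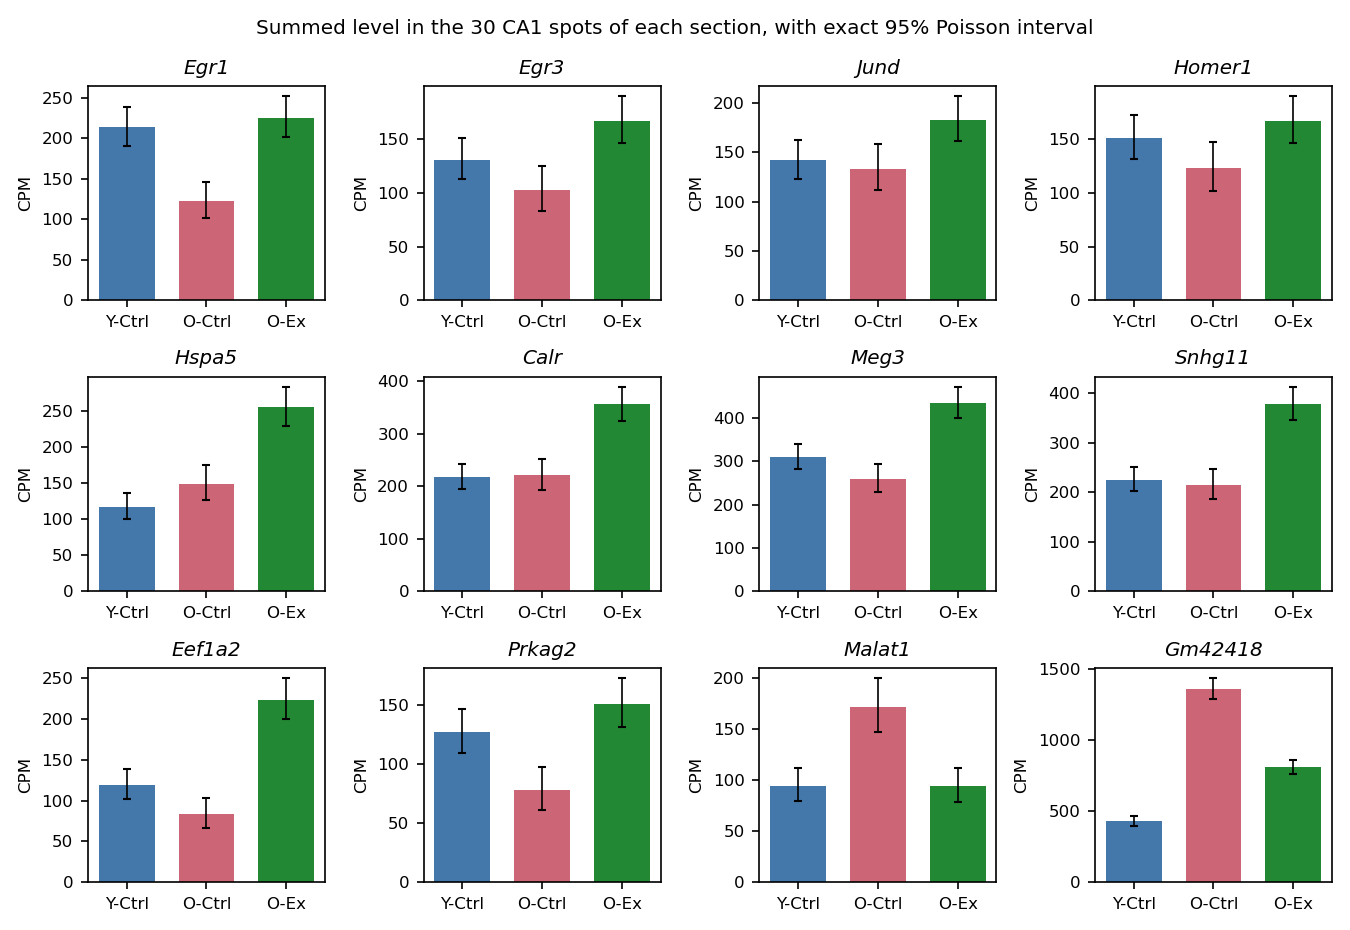
Summed level (CPM) of 12 genes in the 30 CA1 spots of Y-Ctrl (blue), O-Ctrl (red) and O-Ex (green); bars start at 0 and error bars are exact 95% Poisson intervals. Egr1 is lowest in O-Ctrl at 122 CPM, Hspa5, Calr, Meg3, Snhg11 and Eef1a2 are highest in O-Ex, and Malat1 and Gm42418 are highest in O-Ctrl.

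Hspa5 and Calr, chaperones of the endoplasmic reticulum (ER), were past 1.5-fold higher in the CA1 spots of O-Ex than in those of O-Ctrl. Hspa5 encodes BiP, the chief Hsp70 chaperone of the ER and sensor partner of the unfolded protein response. Its level was 117 CPM (100 to 136), 150 CPM (126 to 176) and 255 CPM (230 to 284), and the O-Ex interval lay above both others. The log2 ratio of Hspa5 for O-Ex over O-Ctrl was 0.73, with a range of 0.49 to 0.80 over 16 alternatives, of which 13 kept it past 1.5-fold. The median over spots was 1.19, 1.35 and 2.44 UMIs per 10000. Calr, the calcium-binding lectin calreticulin, stood at 218 CPM (195 to 244), 221 CPM (193 to 253) and 356 CPM (326 to 389). Its log2 ratio for O-Ex over O-Ctrl was 0.66 and stayed past 1.5-fold under all 16 alternatives, at 0.59 to 0.89.

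The other ER chaperones named here did not reach 1.5-fold. Hsp90b1, the ER form of Hsp90, stood at 227, 208 and 253 CPM. The protein disulfide isomerases Pdia3, at 123, 121 and 158 CPM, and Pdia6, at 112, 108 and 137 CPM, had their highest level in O-Ex, although the log2 ratio of Pdia6 for O-Ex over O-Ctrl went from 0.32 to -0.03 with only spots of at least 33694 UMIs. Canx, the membrane-bound lectin calnexin, stood at 272, 271 and 309 CPM. Manf, a secreted ER stress protein, stood at 109, 117 and 119 CPM. Of the cytosolic chaperones, Hsp90aa1 stood at 1274, 1051 and 1364 CPM and Hsph1, a nucleotide exchange factor for Hsp70, at 294, 235 and 317 CPM. Hspe1, the small chaperonin of mitochondria, went the other way for O-Ex over O-Ctrl, at 534, 583 and 468 CPM. Of 14 measured chaperones, 13 were above 0 for O-Ex over O-Ctrl, 2 were past 1.5-fold and the median log2 ratio was 0.28, against -0.01 over all genes. For O-Ctrl over Y-Ctrl 5 were above 0 and the median was -0.04. In the other spots the chaperone median was 0.22 for O-Ex over O-Ctrl and 0.02 for O-Ctrl over Y-Ctrl.

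The promoters of ER chaperones are known for the ER stress element, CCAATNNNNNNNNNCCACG, read by NF-Y and ATF6. A search on both strands of RefSeq promoters (build GRCm38.p6, 250 bases before to 50 after the start) found it in 39 of 32851 (0.119%). Of the 8 ER chaperone genes listed, 7 had an entry. Hspa5, Hsp90b1, Pdia6, Calr and Canx had the element, and Pdia3 and Pdia4 had no match in this window. The stretches around the element are shown for the 2 genes past 1.5-fold and, for comparison, the other 3, all 5′ to 3′ on the strand of the gene, with the element in capitals. They run over 79 bases, or 29 for Hspa5, where the longer stretch overlaps an exon annotated by GENCODE. Hspa5 is at chr2:34772020-34772048 on the plus strand, Calr at chr8:84847045-84847123 on the minus strand, where the element is in reverse orientation, Hsp90b1 at chr10:86705608-86705686 on the minus strand, Canx at chr11:50325770-50325848 on the minus strand and Pdia6 at chr12:17266461-17266539 on the plus strand.
Hspa5: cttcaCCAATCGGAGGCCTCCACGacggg
Calr: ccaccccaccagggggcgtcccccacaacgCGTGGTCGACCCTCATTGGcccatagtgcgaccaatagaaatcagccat
Hsp90b1: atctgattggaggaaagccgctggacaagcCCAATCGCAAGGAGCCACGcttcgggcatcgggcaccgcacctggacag
Canx: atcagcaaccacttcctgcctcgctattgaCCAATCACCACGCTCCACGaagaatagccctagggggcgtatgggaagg
Pdia6: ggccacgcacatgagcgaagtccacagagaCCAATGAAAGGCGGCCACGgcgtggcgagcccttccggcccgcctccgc

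Only 6 of the 37 genes with the element reached 100 CPM in CA1, these 5 and Hnrnpa3, a nuclear RNA-binding protein at 246, 243 and 282 CPM. All 6 were above 0 for O-Ex over O-Ctrl, with a median log2 ratio of 0.30, where 955 of all 1955 genes were above 0. For O-Ctrl over Y-Ctrl 2 of the 6 were above 0, with a median of -0.01, where 910 of all 1955 were. The values of the 5 chaperones are those given above, so this tally adds only Hnrnpa3 to them. A match is a property of the sequence and was not tested as a site.

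Eef1a2 and several noncoding RNAs were highest in the O-Ex section. Eef1a2, the translation elongation factor form of neurons and muscle (chr2:181147653-181157014), stood at 119 CPM (102 to 138), 83.0 CPM (65.9 to 103) and 223 CPM (199 to 249). For O-Ex over O-Ctrl the log2 ratio of Eef1a2 was 1.33, with 1.01 as the lowest and 1.66 as the highest value over the alternatives, and 0.89 in the other spots. Snhg11, a noncoding host gene of small nucleolar RNA, stood at 226, 215 and 379 CPM, with a log2 ratio of 0.79 for O-Ex over O-Ctrl. Meg3, an imprinted noncoding RNA retained in the nucleus, stood at 310, 260 and 435 CPM, with 0.72. In the other spots Snhg11 had 0.76 and Meg3 0.70. Bc1, a noncoding RNA carried into dendrites, stood at 1628, 1628 and 1945 CPM, but its log2 ratio of 0.26 for O-Ex over O-Ctrl was -0.10 without Hpca in the score and 0.70 with only spots of at least 33694 UMIs.

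Malat1 and Gm42418 had the opposite order, with O-Ctrl highest. Malat1, a noncoding RNA of nuclear speckles, stood at 94.8 CPM (79.7 to 112), 172 CPM (147 to 200) and 94.3 CPM (78.8 to 112). Gm42418, an annotated noncoding RNA that overlaps ribosomal RNA sequence, stood at 430 CPM (397 to 465), 1361 CPM (1289 to 1436) and 811 CPM (764 to 860). For O-Ctrl over Y-Ctrl the log2 ratios were 0.80 for Malat1 and 1.64 for Gm42418, and for O-Ex over O-Ctrl they were -0.80 and -0.74. The other spots of the same sections gave 0.33 and 0.72 for O-Ctrl over Y-Ctrl and, with the other sign, 0.25 and 0.34 for O-Ex over O-Ctrl. The dentate spots gave values of 1.25 and 1.88, then -1.69 and -1.46, with the signs of CA1. O-Ctrl is also the section with the fewest UMIs per CA1 spot. With only CA1 spots of at least 33694 UMIs (30, 12 and 22 spots), a setting added after the data were seen, the values were 0.58 for Malat1 and 1.17 for Gm42418, then -0.68 and -0.52, which leaves Malat1 in the first comparison and Gm42418 in the second under 1.5-fold.

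Genes that were lowest in O-Ctrl included a kinase subunit and synaptic proteins. Prkag2, a regulatory subunit of the AMP-activated protein kinase that senses cellular energy, stood at 128 CPM (110 to 147), 77.9 CPM (61.4 to 97.5) and 151 CPM (131 to 173). The log2 ratio of Prkag2 was -0.65 for O-Ctrl over Y-Ctrl and 0.87 for O-Ex over O-Ctrl, against 0.02 and 0.12 in the other spots. Lin7c, a scaffold of synaptic and junctional complexes, stood at 115, 73.8 and 130 CPM. Epha5, an ephrin receptor of axons and spines, stood at 135, 86.1 and 134 CPM. B4galt6, which makes lactosylceramide, stood at 120, 95.3 and 156 CPM. In all of these except B4galt6, Y-Ctrl and O-Ex were nearer to each other than to O-Ctrl.

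Srsf5 and Srsf2, splicing factors of the serine- and arginine-rich family, and Nr3c2 were also lowest in O-Ctrl. Srsf5 stood at 228, 141 and 189 CPM and Srsf2 at 136, 91.2 and 146 CPM. Vmp1, an ER membrane protein needed for autophagy, stood at 185, 119 and 156 CPM. Nr3c2, the mineralocorticoid receptor that is abundant in hippocampal neurons, stood at 208 CPM (185 to 233), 143 CPM (121 to 169) and 193 CPM (171 to 217), with log2 ratios of -0.51 and 0.40. Usp9x, a deubiquitinase, stood at 187, 127 and 158 CPM. Med10, a Mediator subunit, was low in both O sections at 250, 174 and 177 CPM. Tmbim6, an ER membrane protein that limits cell death, was high in O-Ex alone at 85.3, 90.2 and 151 CPM.

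Subunits of glutamate receptors differed little. Gria1 and Gria2, which form the main AMPA receptor of CA1, stood at 576, 512 and 585 CPM and at 771, 750 and 908 CPM. Grin1, the obligatory NMDA receptor subunit, stood at 386, 401 and 500 CPM, Grin2a at 564, 510 and 597 CPM and Grin2b at 151, 144 and 136 CPM. The AMPA receptor auxiliary protein Cnih2 stood at 1424, 1308 and 1185 CPM, with O-Ex the lowest. Of 10 measured members, 8 were above 0 for O-Ex over O-Ctrl with a median log2 ratio of 0.21, and 0 reached 1.5-fold. For O-Ctrl over Y-Ctrl, 3 were above 0 and the median was -0.04. All 4 measured members of the list of GABA-A receptor subunits and gephyrin were below 0 for O-Ctrl over Y-Ctrl (median -0.13). For O-Ex over O-Ctrl all 4 were above 0 (median 0.16). The O-Ctrl over Y-Ctrl value of Gabra5 turned to 0.13 with the 15 highest spots and to 0.08 with only spots of at least 33694 UMIs.

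Calcium and kinase signalling genes were split. Camk2a, the alpha subunit of the calmodulin-dependent kinase of long-term potentiation, stood at 233 CPM (209 to 259), 347 CPM (311 to 386) and 307 CPM (279 to 338), with a log2 ratio of 0.56 for O-Ctrl over Y-Ctrl. Camk2b, its partner, was level at 630, 655 and 643 CPM. Ppp3ca, the catalytic subunit of calcineurin, stood at 2803, 2510 and 3331 CPM. The calmodulin-binding protein Nrgn was level at 4074, 3891 and 3931 CPM. Of 21 measured members 0 were past 1.5-fold in either comparison, and the medians were -0.05 for O-Ctrl over Y-Ctrl and 0.04 for O-Ex over O-Ctrl.

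Synaptic vesicle genes were mostly above 0 in O-Ex. Sv2a, a vesicle glycoprotein, stood at 91.4 CPM (76.6 to 108), 99.4 CPM (80.6 to 121) and 158 CPM (137 to 180), with a log2 ratio of 0.62 for O-Ex over O-Ctrl. Syn1, which tethers vesicles to actin, stood at 182, 226 and 289 CPM, and Dnm1, the dynamin of vesicle recycling, at 653, 699 and 875 CPM. Of 22 measured members, 18 were above 0 for O-Ex over O-Ctrl and 1 was past 1.5-fold, with a median of 0.18, against 15 above 0 and a median of 0.05 for O-Ctrl over Y-Ctrl.

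Energy metabolism differed in small steps. Of 16 glycolysis genes, 15 were above 0 for O-Ctrl over Y-Ctrl with a median log2 ratio of 0.19 and 0 past 1.5-fold, and the median was -0.04 for O-Ex over O-Ctrl. Eno1, an enolase, stood at 151, 215 and 212 CPM, and Pkm, the pyruvate kinase, at 741, 928 and 936 CPM. All 11 mitochondrially encoded respiration genes were above 0 for O-Ctrl over Y-Ctrl, with a median of 0.16, while in the other spots the median was -0.02. That direction turned with the 15 highest spots, where the median was -0.14, and without the 10 spots richest in myelin genes, where it was -0.05. For mt-Co1, a subunit of cytochrome oxidase, the log2 ratio was 0.29, and -0.26 with only spots of at least 33694 UMIs. The median spot of mt-Co1 was lower in O-Ctrl, at 72.0 UMIs per 10000, than in Y-Ctrl, at 87.4. Of 33 nuclear encoded respiration genes, 24 were below 0 for O-Ex over O-Ctrl with a median of -0.18. Of 49 cytosolic ribosomal protein genes, 44 were below 0 with a median of -0.14.

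These last 2 lists hold short transcripts, and in O-Ex over O-Ctrl the ratio in CA1 moved with transcript length. The median log2 ratio was -0.18 among the 489 genes with the shortest transcripts (168 to 1607 bases), -0.05 and 0.07 in the middle bins and 0.15 among the 489 with the longest (4321 to 27908 bases). Outside CA1 the same 4 bins ran from -0.08 to 0.08. For O-Ctrl over Y-Ctrl the CA1 medians ran only from 0.01 to -0.04. When the ratios were centred on the median of genes of similar length, a setting added after the data were seen, the median of the ribosomal list was 0.03, that of nuclear encoded respiration -0.03, that of glutamate receptors 0.06 and that of synaptic vesicle genes 0.09. Chaperones kept a median of 0.24 and immediate early genes 0.51. No centred median was taken for the GABA-A receptor list, which had 4 measured members.

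**Figure D5:**
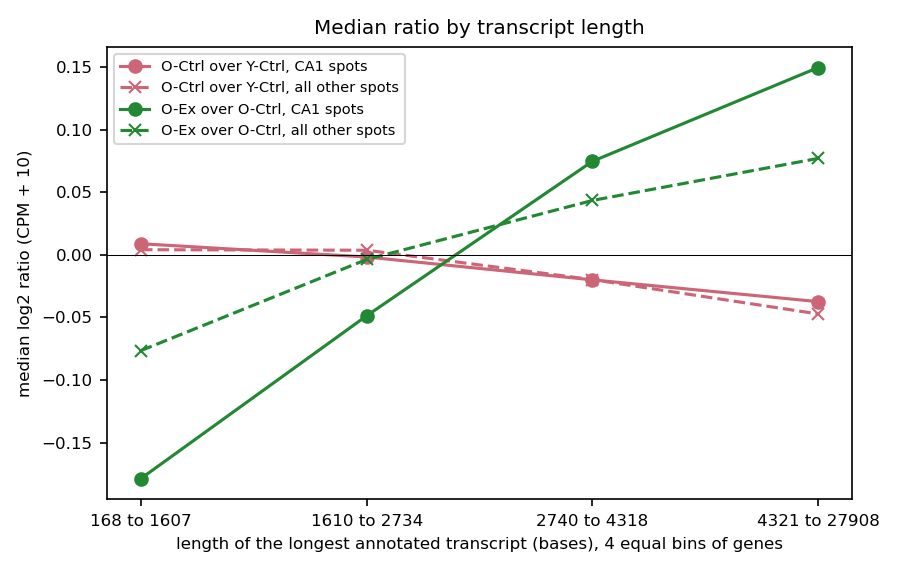
Median log2 ratio on CPM + 10 (vertical axis) in 4 equal bins of genes by the length of the longest annotated transcript in bases (horizontal axis), in CA1 spots (circles, solid lines) and all other spots (crosses, dashed lines), for O-Ctrl over Y-Ctrl (red) and O-Ex over O-Ctrl (green). The CA1 line of O-Ex over O-Ctrl climbs from -0.18 to 0.15.

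Dnajc30 had the lowest log2 ratio for O-Ex over O-Ctrl among the genes described next. Dnajc30, a mitochondrial J-domain protein, stood at 107 CPM (91.0 to 125), 129 CPM (108 to 154) and 64.8 CPM (52.1 to 79.6). The log2 ratio of Dnajc30 for O-Ex over O-Ctrl was -0.90 and stayed past 1.5-fold under all 16 alternatives. Nfu1, an iron-sulfur cluster assembly factor, stood at 164, 162 and 97.2 CPM. Timm10, a chaperone of protein import, stood at 125, 146 and 91.4 CPM, and Mrpl57, a mitochondrial ribosomal protein, at 240, 228 and 150 CPM. Fkbp3, a nuclear prolyl isomerase, stood at 530 CPM (493 to 569), 551 CPM (506 to 600) and 332 CPM (303 to 364), with a log2 ratio of -0.71. Cebpd, a transcription factor of acute responses, stood at 115, 114 and 71.2 CPM, and Ppdpf at 179, 208 and 131 CPM. For these 7 genes O-Ex had the lowest level. Of 16 alternatives for O-Ex over O-Ctrl, 16 kept Fkbp3 past 1.5-fold, 15 Nfu1, 12 Cebpd, 12 Ppdpf and 10 Timm10. Mrpl57 did not reach 1.5-fold. Timm10 and Ppdpf fell under 1.5-fold when centred on genes of similar transcript length. In all spots outside CA1 the log2 ratios for O-Ex over O-Ctrl were -0.11 for Dnajc30, -0.20 for Fkbp3, -0.07 for Nfu1 and -0.04 for Cebpd. In the CA2 and CA3 spots they were -0.31, -0.32, -0.39 and -0.96, and in the dentate spots -0.11, -0.23, 0.28 and 0.03.

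Some of the differences were in genes of other cell types. Ttr, the transthyretin made by the choroid plexus, stood at 130 CPM (112 to 149), 88.1 CPM (70.5 to 109) and 241 CPM (216 to 268). The log2 ratio of Ttr for O-Ex over O-Ctrl was 1.36 in CA1 and 1.37 in all other spots. With Hpca left out of the score it was -5.58 in CA1, and that for O-Ctrl over Y-Ctrl went from -0.51 to 6.30. The choroid plexus and ependyma list, which includes Ttr, summed to 231, 183 and 342 CPM in CA1 and to 4798, 5700 and 14476 CPM elsewhere. Of its 9 matched genes, 4, 4 and 1 were at 0 in the CA1 spots. Folr1 and Foxj1 were at 0 in Y-Ctrl and O-Ctrl but were detected in O-Ex. The part of RNA from the choroid plexus in the level of Ttr in CA1 was not tested. Ptgds, a prostaglandin D synthase of the meninges and choroid plexus, stood at 97.5, 161 and 180 CPM, and its log2 ratio for O-Ex over O-Ctrl, 0.15, was -1.02 without Hpca in the score. Gad1, which makes GABA in interneurons, stood at 66.2, 111 and 128 CPM, with a median of 1, 1.5 and 3 counts per spot and up to 45 in 1 spot. Other interneuron genes had other orders, with Sst at 148, 61.1 and 50.8 CPM, Npy at 104, 74.4 and 60.9 CPM and Vip at 23.1, 89.7 and 13.6 CPM, and the list of 12 summed to 664, 750 and 626 CPM. Pcp4 had a log2 ratio of -0.83 for O-Ex over O-Ctrl and Rgs14, another gene of CA2, -0.56. The value of Pcp4 rests on the few spots described above, and it was above 0 under 4 alternatives, from 0.0385 to 0.68. That of Rgs14 ran from -0.64 to -0.06 with other settings. In O-Ctrl the 2 richest spots held 26 and 19 of the 169 Rgs14 counts, and in Y-Ctrl 1 spot held 59 of 260.

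Of the 16 myelin and oligodendrocyte genes, 14 had their lowest level in Y-Ctrl and 2, Opalin and Aspa, in O-Ctrl. Mbp, the myelin basic protein, stood at 302, 431 and 337 CPM. The log2 ratio of Mbp for O-Ctrl over Y-Ctrl was 0.50, and -0.01 with only spots of at least 33694 UMIs. Apoe, the lipid carrier of astrocytes, stood at 359, 507 and 538 CPM. Astrocyte identity genes summed to 1005, 1224 and 1229 CPM in CA1 against 2960, 3193 and 3004 CPM elsewhere. The blood list summed to 61.7, 108 and 337 CPM, and 1 O-Ex spot alone reached 4543 CPM. The part of glial and blood RNA in the other differences was not tested.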

How the data were processed

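The deposited matrices hold raw UMI counts of 31053 genes for 4992 barcodes in each of 3 sections, which per the file headers come from Space Ranger 2.0.0. The submitters' processing notes name mm10 as the genome build. The counts were not normalized by the authors before deposit, as whole numbers with different totals show. The positions of spots and the images were not used, and no doublet caller was run because a spot is a piece of tissue.

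The spots, the 39 gene lists (16 of markers and 23 of pathways) and the rules were chosen with earlier results of these data known. Of 617 listed symbols, 4 were not matched (Ecrg4, Rian, Peg13 and Snhg14). The comparison spots were the 30 highest of each section for Cpne4, Grik4, Amigo2 and Rgs14 (CA2 and CA3) and the 30 highest for Prox1, C1ql2, Dsp and Tdo2 (dentate), leaving out CA1 spots. Counts of the 30 spots were summed, the 4 score genes removed, and CPM taken over the remaining total, while marker list sums use the total of all genes. Log2 ratios were taken on CPM + 10, which understates differences of low genes. Genes that averaged 100 CPM or more were counted as higher or lower from 1.5-fold. With 1 section per group no test was made, since spots do not replicate a condition.

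Named genes were the 12 highest and 12 lowest log2 ratios of each comparison with Poisson intervals that do not overlap, members of the lists with at least 100 CPM (the most abundant, those with the largest ratios, and any immediate early, glutamate receptor or calcium and kinase gene), list markers as levels, and the 15 genes highest in CA1 over other spots. Xist and Y-linked genes were left out. Values of some single genes are not reported here. Transcript lengths and exons came from the GENCODE M21 annotation of mm10, with a length for 1954 of the 1955 genes, and promoters from RefSeq. The scripts were tested on simulated data. Alternatives were 18 settings for spots, score, scaling, pseudocount, minimum and fold, and 2 added after the data were seen. Python 3.11.15, numpy 2.4.6, scipy 1.17.1, pandas 2.3.3 and matplotlib 3.10.9 were used.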

Additional observations from a re-analysis of the deposited data

How the results depend on the processing

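Counts of genes past 1.5-fold are given in the order higher and lower for O-Ctrl over Y-Ctrl, then higher and lower for O-Ex over O-Ctrl, where the reported counts are 6, 6, 21 and 10. They were 12, 13, 32 and 30 with 15 spots. With 50 spots the lower counts were 3 and 6. Without Hpca in the score the first 3 counts were 13, 11 and 39, and without Wfs1 the second was 2. Without the 10 spots richest in dentate, CA2 and CA3 markers the count was 12 lower for O-Ctrl over Y-Ctrl and 34 higher for O-Ex over O-Ctrl, and without the 10 richest in myelin genes the last was 23. A pseudocount of 25 CPM gave 2, 13 and 6 for the second to the last. A minimum of 50 CPM gave 18, 19, 57 and 29, a minimum of 200 CPM 1, 0, 5 and 4, and no minimum 217, 246, 477 and 167. At 2-fold the counts were 1, 0, 2 and 0. In settings added after the data were seen, centring on transcript length gave 3 for the second, and keeping only spots of at least 33694 UMIs (30, 12 and 22 spots in Y-Ctrl, O-Ctrl and O-Ex) gave 12, 35 and 29 for the second to the last. The other 44 of 80 counts stayed within 1.5 times. Where the filter itself adds or removes genes, the counts follow the number of genes counted, and for the other settings the cause was not tested. The share of higher genes among all called in O-Ex over O-Ctrl was 67.7%, and 69.7% with median of ratios scaling. In O-Ctrl over Y-Ctrl it was 50%, 60% with median of ratios scaling and 64.3% with the total taken without mitochondrially encoded genes and Bc1. Of 2775 recomputed gene ratios, 2638 moved by less than their counting interval, 132 moved by more, and 5 values past 1.5-fold changed sign. In all 164 values changed sign, 152 of them from a log2 ratio within 0.3 of 0. The 5 past 1.5-fold are Ttr in O-Ex over O-Ctrl, at -5.58 without Hpca in the score, and Pcp4 in the same comparison, at 0.0385 with 15 spots, 0.14 with 50 spots, 0.68 without Hpca and 0.22 with a score from Pou3f1, Mpped1, Neurod6 and Itpka. The cause was not tested. Of 574 recomputed list medians, 82 moved by more than their counting error, 46 changed sign, and a minimum of 200 CPM left no immediate early gene to take a median of. Depth limits O-Ctrl most, with 981215 UMIs, and genes under 100 CPM are known only to wide intervals there.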

Other observations

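Of 16 clock genes, 2 (Dbp and Tef) averaged at least 100 CPM in CA1, and Dbp alone was past 1.5-fold, for O-Ctrl over Y-Ctrl. Of the 14 below that level, the Y-Ctrl section was lowest for 7, O-Ctrl for 5 and O-Ex for 2. Dbp, a transcription factor driven by the clock, stood at 79.8, 137 and 106 CPM in Y-Ctrl, O-Ctrl and O-Ex. Arntl, which encodes the clock activator BMAL1, stood at 57.3 CPM (45.7 to 70.9), 22.6 CPM (14.1 to 34.1) and 30.2 CPM (21.8 to 40.9). Per2, a clock repressor, stood at 14.3, 14.4 and 37.4 CPM, and Nr1d2, a nuclear receptor of the clock, at 47.7, 63.5 and 96.4 CPM. The hour at which the brains were taken is not given in the sources used here.

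Of 22 genes of the interferon response and MHC class I, 14 were under 10 CPM in CA1 in all 3 sections and 2, Ifi27 and B2m, averaged at least 100 CPM. Of the 22, 12 had their lowest level in Y-Ctrl, 10 in O-Ex and 0 in O-Ctrl. Of 13 genes of complement and reactive glia, 4 were under 10 CPM in all 3 and 1, Clu, averaged at least 100 CPM. Gbp2, an interferon-induced GTPase, had 4, 6 and 2 counts and Igtp, another of that class, 3, 3 and 2 counts, while in the other spots the log2 ratio of Gbp2 was 1.66 for O-Ctrl over Y-Ctrl and -1.28 for O-Ex over O-Ctrl. C4b, a complement component, had 4, 14 and 32 counts in CA1. Whether so few counts could show a difference of the size seen for Gbp2 in the other spots was not tested.

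Of 20 growth factor and exercise-linked genes, 4 averaged at least 100 CPM. Of these, 0 reached 1.5-fold for O-Ctrl over Y-Ctrl or for O-Ex over O-Ctrl, where the highest log2 ratios were 0.44 and 0.40. Bdnf, the neurotrophin of activity and exercise, stood at 78.4 CPM (64.8 to 94.2), 78.9 CPM (62.3 to 98.6) and 77.7 CPM (63.8 to 93.8). Ntrk2, its receptor, stood at 118, 118 and 159 CPM, and Fndc5, the precursor of irisin, at 87.3, 122 and 109 CPM. Of 9 measured genes of neurodegeneration proteins, 5 were above 0 for O-Ex over O-Ctrl, 4 were below 0 and 0 reached 1.5-fold. App, at 1164, 1112 and 1414 CPM, and the prion protein gene Prnp, at 1547, 1334 and 1740 CPM, were highest in O-Ex. Their values, like the genes above below 100 CPM, were chosen after they were seen.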
